A study of Mus musculus with 24 samples.

Results

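Immediate early genes are the genes whose transcripts cells make first after a stimulus, and 10 of them were followed here in mouse epididymal fat: Fos, Fosb, Jun, Junb, Egr1, Egr2, Atf3, Ier2, Ier3 and Nr4a1. They were found through the accession that the array files give for each probe. Each gene had 1 probe, and these 10 probes stand beside 55681 probes on the array, of which 24769 passed a filter on dim signals and represented 21051 features (13014 named genes and 8037 probes without a name). All 10 genes passed that filter, so all of them are described.

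Immediate early genes are switched on within minutes by growth factors, hormones, stretch, injury or nutrients, because the factors that start them, chiefly SRF with its ELK partners and CREB, already sit in the cell and need only be phosphorylated. Most of their products are transcription factors. FOS and JUN proteins pair to form AP-1, the EGR proteins bind DNA through zinc fingers, ATF3 is a CREB-family factor of the stress response, and NR4A1 is an orphan nuclear receptor. Their transcripts are short-lived, and in fat they are found in fat cells as well as in macrophages and stromal cells, and are known to respond quickly to feeding and to the handling of tissue.

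The fat came from 24 individually housed male C57BL/6JRcc mice, aged 28 or 29 weeks at the end. NR stands for nicotinamide riboside, a vitamin B3 and precursor of NAD. The No NR diet held 0 mg of it per kg and was eaten by 12 mice for 18 weeks, while the other 12 ate the Ctrl NR diet, which held 30 mg per kg, for as long. All mice had eaten the Ctrl NR diet for 2 weeks beforehand, and both diets were semi-synthetic, took 40% of their energy from fat and held little tryptophan (0.115%), the amino acid from which NAD can also be made. On the last day every mouse was given only 0.8 g of its diet when the dark phase began, so that it had fasted by the end of that phase, and was then refed 1.8 g of its diet for 4 hours and killed, and RNA was taken from the whole fat pad, so the mice stood in a refed state and no earlier time point was sampled. Every animal had a 2-colour Agilent array of its own, with its RNA in Cy5 and, in Cy3, a pool shared by all arrays to which other dietary groups and 4 female samples had been added. Each value below is the log2 ratio of an animal to that pool, so 0 is the level of the pool.

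Both diets were present on each of the 5 slides. The share of spots whose Cy5 signal was well above background ranged between 34.5% and 50.7% (median 44.7%). 2 No NR arrays stood apart: after the background correction the 5th percentile of Cy5 was 331 in mouse No NR 74 and 161 in mouse No NR 118, against 56.1 to 62.7 on the other 22 arrays, which draws the ratios of dim probes toward 0 on those arrays. Results are therefore also given without these 2 mice. All 17 listed adipocyte markers were above the filter, as were 21 of 22 macrophage markers (Cd68 had no matched probe), while of 8 markers of epididymis and testis 3 were, all of them spermatid genes (Prm1, Prm2 and Tnp1), and none of the 4 epididymis markers. The number of arrays limits the precision, and over all features the median standard error of the fold changes was 0.0811 on the log2 scale.

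The sequences around the start sites of Fos, Egr2 and Atf3 are shown because the levels of these 3 genes followed each other from mouse to mouse, and that of Ier3 because its level did not. Each run covers 250 bases before and 50 bases after a start site annotated by RefSeq on GRCm38.p6. Capitals mark matches to TGACG, the core of the site that CREB binds, on either strand, and to the CArG box, the site that SRF binds, and the remaining bases are in lower case. The Fos window lies at chr12:85473640-85473939 on the plus strand, and that of Egr2 at chr10:67537619-67537918 on the plus strand. Those of Atf3 and Ier3 lie at chr1:191183284-191183583 on the minus strand and at chr17:35821463-35821762 on the plus strand.
Fos: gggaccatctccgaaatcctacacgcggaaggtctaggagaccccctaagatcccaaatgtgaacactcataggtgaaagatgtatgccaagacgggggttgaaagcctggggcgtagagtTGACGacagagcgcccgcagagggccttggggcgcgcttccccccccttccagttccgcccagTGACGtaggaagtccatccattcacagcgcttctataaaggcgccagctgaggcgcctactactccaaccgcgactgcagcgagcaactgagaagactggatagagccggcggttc
Egr2: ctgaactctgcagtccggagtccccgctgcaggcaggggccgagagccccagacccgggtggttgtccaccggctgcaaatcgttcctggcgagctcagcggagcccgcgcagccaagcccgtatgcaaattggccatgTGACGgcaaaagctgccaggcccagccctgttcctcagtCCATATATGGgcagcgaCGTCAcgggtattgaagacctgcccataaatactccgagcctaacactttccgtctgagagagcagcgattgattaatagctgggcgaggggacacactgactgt
Atf3: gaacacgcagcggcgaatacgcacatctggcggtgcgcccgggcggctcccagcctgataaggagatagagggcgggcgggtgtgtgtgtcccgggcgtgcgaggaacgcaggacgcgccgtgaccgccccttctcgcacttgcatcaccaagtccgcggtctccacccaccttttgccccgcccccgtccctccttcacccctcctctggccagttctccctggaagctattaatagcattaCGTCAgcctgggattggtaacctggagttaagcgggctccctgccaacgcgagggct
Ier3: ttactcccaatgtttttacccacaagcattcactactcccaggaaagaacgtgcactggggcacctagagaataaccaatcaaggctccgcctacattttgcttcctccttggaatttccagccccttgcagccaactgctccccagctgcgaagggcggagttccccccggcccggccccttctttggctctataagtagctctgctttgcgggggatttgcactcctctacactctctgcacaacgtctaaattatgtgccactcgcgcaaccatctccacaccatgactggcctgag
The Fos window held 2 copies of TGACG, which begin 129 and 66 bases before the start. The Egr2 window held 2 copies, beginning 111 and 55 bases before the start, with a CArG box that begins 72 bases before it, and the 3 matches do not overlap. RefSeq gives 5 windows for Egr2, 4 of which hold a CArG box, and the one shown is among them. The windows that begin at 67537619, 67537620 and 67537680 overlap and hold the same box. The window at 67537316 held a CArG box but no TGACG, and that at 67535249 held neither motif. The Atf3 window held 1 copy, on the opposite strand, that begins 7 bases before the start, and the Ier3 window held neither motif. Windows were examined for 8 of the 10 genes, all but Egr1 and Ier2, and 6 of these 8 held TGACG in a window. The same was true of 23.0% of the 27025 genes in the table (20.8% of all 32851 windows). Egr1 and Ier2 are left out of the counts given here, so these counts do not show whether their windows hold either motif. A CArG box stood in a window of 1 of the 8 genes, Egr2, and of 1.81% of all genes (1.63% of all windows). The 6 genes with TGACG were Fos, Egr2, Atf3, Fosb, Junb and Nr4a1 (4 copies), while the Jun window, like that of Ier3, held neither motif. TGACG was thus not confined to the 3 genes that followed each other. A match is a run of letters and not a measured binding site. Bases farther than 250 before a start were not examined, so a window without a motif does not show that the gene lacks one.

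The comparison of the diets asked whether these genes responded in fat to 18 weeks without dietary vitamin B3. None of the 10 genes passed the test: at an adjusted p under 0.05 limma called 0 of 10, as it called 0% of all 21051 features. Fos, Egr2 and Atf3 were nominally higher in No NR mice, with log2 fold changes of 0.46, 0.40 and 0.49, and the other 7 were nominally lower, between -0.24 and -0.04. At an unadjusted p under 0.05 there was 1 gene, Ier2, where 14.1% of all features lay under that limit. The median log2 fold change of the 10 genes was -0.05, against -0.01 over all features.

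**Figure D1:**
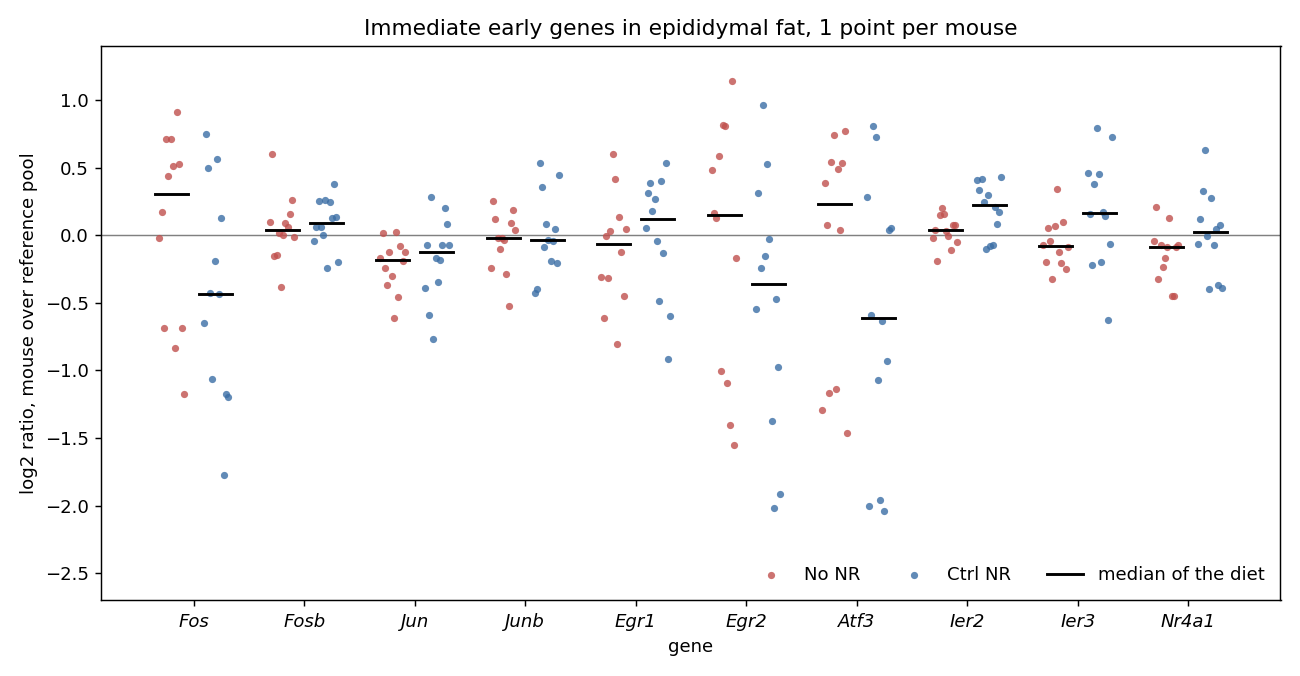
Log2 ratio of each mouse over the reference pool (vertical axis) for the 10 immediate early genes (horizontal axis), with No NR mice in red on the left of each pair and Ctrl NR mice in blue on the right, and a bar at the median of the 12 mice of each diet. Fos, Egr2 and Atf3 span far more than the others, down to -2.04 for Atf3 in a Ctrl NR mouse, and the diets overlap for every gene.

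Fos encodes the partner that JUN proteins need to form the most active AP-1 dimers. In No NR mice its log2 ratio was -1.18 in the lowest mouse, 0.30 at the median and 0.91 in the highest, against -1.78, -0.43 and 0.74 in Ctrl NR mice. The diets overlapped almost fully: 11 of 12 No NR mice lay within the range of the Ctrl NR mice, while 8 of 12 lay above the Ctrl NR median. The means were 0.05 ± 0.71 in No NR and -0.41 ± 0.80 in Ctrl NR mice (SD, n = 12 each). The log2 fold change was 0.46 (SE 0.281, 95% interval -0.11 to 1.04, a 1.38-fold ratio), and by limma its adjusted p was 0.464. Within slides the difference was positive on 4 of 5 and lay between -0.43 and 0.83.

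The Fos probe was printed on 10 spots of every array, which gives a measure of the technical error that the other 9 genes lack. Within an array the log2 ratios of these spots had an SD between 0.0682 and 0.237, with a median of 0.127. The pooled SD of their mean was 0.0462, against an SD of 0.777 between the 24 mice. The spread of Fos between mice was thus many times the error of reading 1 array, although the spots share the labelled RNA of the mouse and do not measure the error of labelling it.

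**Figure D2:**
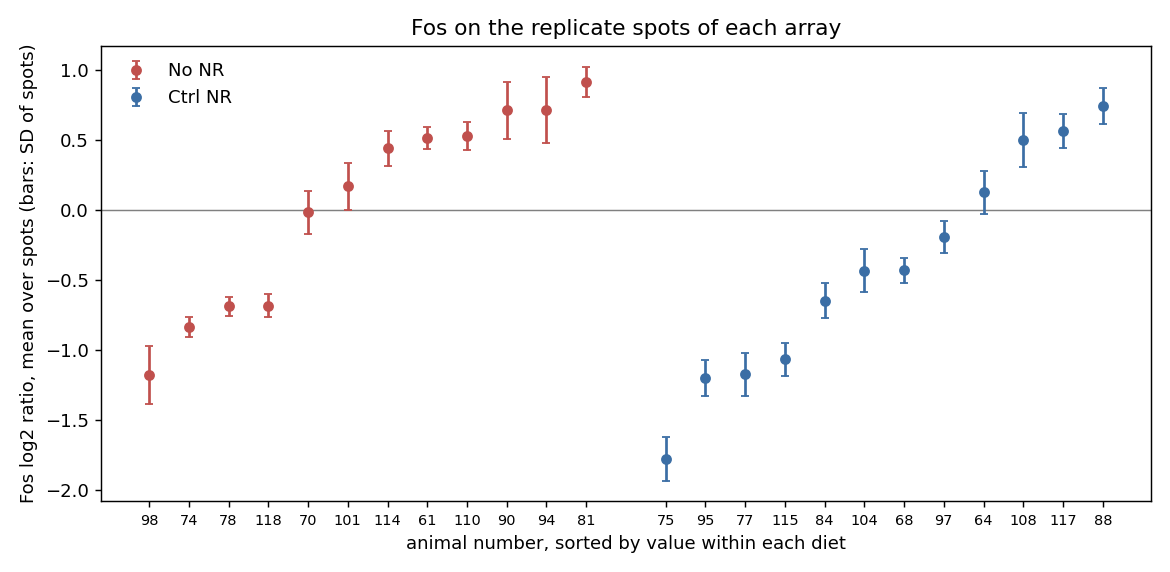
Mean Fos log2 ratio over the spots of each array (vertical axis), with bars for the SD of these spots, by animal number (horizontal axis), No NR mice on the left in red and Ctrl NR mice on the right in blue, sorted within each diet. The bars are short beside the distance between mice: 4 No NR mice lie at or below -0.68 and 8 at or above -0.02.

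Egr2 encodes a zinc finger factor that in mouse is known from early adipogenesis and from myeloid cells. Its log2 ratio was -1.55, 0.15 and 1.14 in the lowest, median and highest No NR mouse, against -2.02, -0.36 and 0.96 in Ctrl NR mice. The highest of all 24 values belonged to a No NR mouse and the 2 lowest to Ctrl NR mice, and 11 of 12 No NR mice lay within the Ctrl NR range. The means were -0.09 ± 0.94 in No NR and -0.49 ± 0.93 in Ctrl NR mice, which differed by 0.40 on the log2 scale (SE 0.348, 95% interval -0.31 to 1.12, limma adjusted p = 0.621). The within-slide difference was positive on 3 of 5 slides.

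Atf3 encodes a stress-induced factor that in macrophages is known to restrain inflammatory genes. Its log2 ratio was -1.46, 0.23 and 0.77 in the lowest, median and highest No NR mouse, against -2.04, -0.61 and 0.81 in Ctrl NR mice. All 12 No NR mice lay within the Ctrl NR range, and 3 Ctrl NR mice lay below every No NR mouse. The means were -0.12 ± 0.87 in No NR and -0.61 ± 1.03 in Ctrl NR mice, which differed by 0.49 on the log2 scale (SE 0.354, 95% interval -0.24 to 1.21, limma adjusted p = 0.552). The difference was positive on 3 of 5 slides and lay between -0.55 and 1.35.

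The low end of these 3 genes was made up of the same animals. In No NR mice the 4 lowest mice were the same for Fos, Egr2 and Atf3, and in Ctrl NR mice they were also the same 4. The No NR mice fell apart at that point: the widest gap in Atf3 separated 4 mice at or below -1.14 from 8 mice at or above 0.04. Both arrays with the raised Cy5 floor, No NR 74 and No NR 118, were among these 4 mice. Without these 2 mice the log2 fold changes were 0.63 for Fos, 0.63 for Egr2 and 0.71 for Atf3, each still short of the threshold, with limma adjusted p of 0.297, 0.387 and 0.340.

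Egr1, the best known EGR factor known to act on fat breakdown in adipocytes, had a log2 ratio of -0.80, -0.07 and 0.60 in the lowest, median and highest No NR mouse, against -0.92, 0.12 and 0.54 in Ctrl NR mice. Its diets overlapped, with 11 of 12 No NR mice within the Ctrl NR range. Its log2 fold change was -0.11 (SE 0.163, 95% interval -0.45 to 0.22, limma adjusted p = 0.778), opposite in sign to that of Egr2. Slide 1, with 1 No NR mouse (No NR 118), gave the most negative within-slide difference, -1.10, and without No NR 74 and No NR 118 the log2 fold change was -0.03.

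Jun, the core partner of AP-1, ran from -0.61 through a median of -0.18 to 0.03 in No NR mice, against -0.77, -0.12 and 0.28 in Ctrl NR mice. All 12 No NR mice lay within the Ctrl NR range, and the log2 fold change was -0.05 (SE 0.101, limma adjusted p = 0.863). The interval of this difference, -0.25 to 0.16, holds no change of the size seen for Fos, though the difference between the 2 genes was not tested. Of the 10 genes Jun had the lowest p between slides: its slide means lay between -0.61 and -0.01, with an unadjusted p of 9e-05 in limma's F-test of slide (adjusted p = 0.0905). By that test 0 of 10 genes passed at an adjusted p under 0.05, against 0.0143% of 21050 features, and 1 of 10, Jun, lay at an unadjusted p under 0.05, against 6.93%.

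Fosb and Junb, further partners in AP-1, were dim. Fosb ran from -0.38 through 0.04 to 0.60 in No NR mice, against -0.24, 0.09 and 0.38 in Ctrl NR mice, and was well above background on 10 of 12 No NR and 11 of 12 Ctrl NR arrays. Junb ran from -0.52 through -0.02 to 0.25 in No NR mice, against -0.43, -0.04 and 0.54 in Ctrl NR mice, and was well above background on 2 of 12 No NR and 6 of 12 Ctrl NR arrays. The diets overlapped for both, with log2 fold changes of -0.04 (SE 0.0867, limma adjusted p = 0.877) and -0.05 (SE 0.105, limma adjusted p = 0.850). A background-corrected ratio understates the change of probes as dim as these. The median Cy5 signal of Junb was 53.0 in No NR and 57.5 in Ctrl NR mice, where the background of an array lay between 30 and 38.

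Ier2, a small nuclear protein made early after growth factor stimulation, had a log2 ratio of -0.19, 0.04 and 0.20 in the lowest, median and highest No NR mouse, against -0.10, 0.22 and 0.43 in Ctrl NR mice. No No NR mouse reached the Ctrl NR median, and 7 of 12 Ctrl NR mice lay above every No NR mouse. The means were 0.03 ± 0.11 in No NR and 0.19 ± 0.20 in Ctrl NR mice, which differed by -0.17 on the log2 scale (SE 0.0683, 95% interval -0.31 to -0.02, a 0.892-fold ratio). The difference was negative on all 5 slides, between -0.26 and -0.05. It passed before adjustment (p = 0.0227 by limma) and not after (adjusted p = 0.272). The probe was dim, with a median Cy5 signal of 73.0 in No NR and 80.8 in Ctrl NR mice, and was well above background on 9 of 12 No NR and all 12 Ctrl NR arrays.

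Ier3, a stress-induced regulator of cell survival, had a log2 ratio of -0.32, -0.08 and 0.35 in the lowest, median and highest No NR mouse, against -0.63, 0.16 and 0.79 in Ctrl NR mice. The No NR mice all lay within the Ctrl NR range, 1 of 12 lay above the Ctrl NR median, and 5 Ctrl NR mice lay above every No NR mouse. The means were -0.06 ± 0.18 in No NR and 0.18 ± 0.41 in Ctrl NR mice, which differed by -0.24 on the log2 scale (SE 0.123, 95% interval -0.49 to 0.01, limma adjusted p = 0.376). On slides the difference was negative on 3 of 5.

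Nr4a1, the orphan receptor NUR77, had a log2 ratio of -0.45, -0.09 and 0.21 in the lowest, median and highest No NR mouse, against -0.39, 0.02 and 0.63 in Ctrl NR mice. The diets overlapped, with 10 of 12 No NR mice within the Ctrl NR range and 2 of 12 above the Ctrl NR median. The log2 fold change was -0.15 (SE 0.102, 95% interval -0.36 to 0.06, limma adjusted p = 0.512), negative on 4 of 5 slides. The 2 lowest No NR mice were No NR 74 and No NR 118, and without them the log2 fold change was -0.09.

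**Figure D3:**
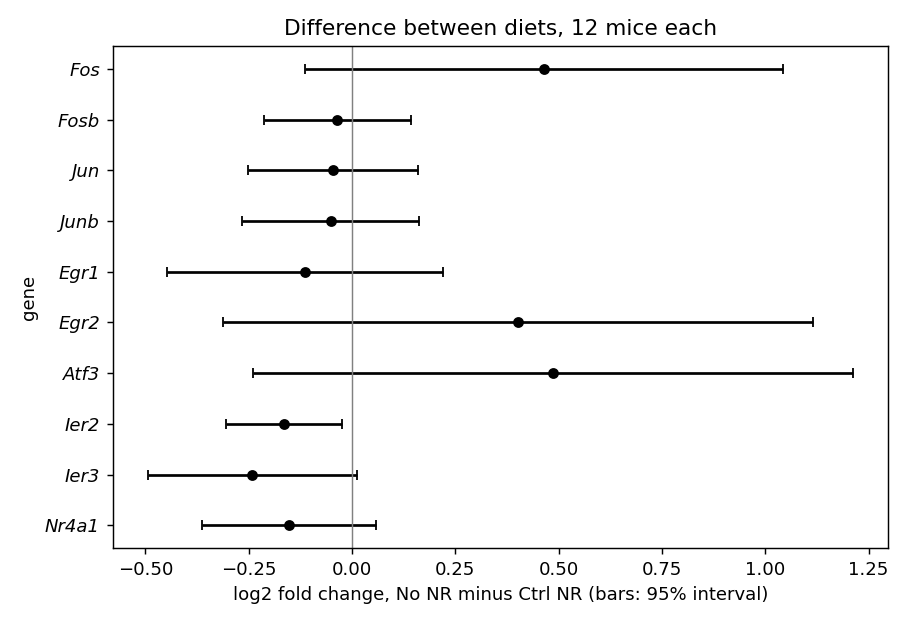
Log2 fold change, No NR minus Ctrl NR, of each immediate early gene (horizontal axis) with its 95% interval from limma, 12 mice per diet, one gene per line. The intervals of 9 genes hold 0 and that of Ier2 ends at -0.02 before adjustment, while the intervals of Fos, Egr2 and Atf3 are the widest.

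Mice of the same diet differed widely in some of these genes. Within diets the SD of the log2 ratio was 0.953 for Atf3, 0.937 for Egr2 and 0.757 for Fos, against a median of 0.199 over all features, and 99.7%, 99.7% and 99.1% of features varied less. Egr1 followed at 0.431 (94.6% of features varied less) and Ier3 at 0.320 (87.1%). Junb, Nr4a1, Jun and Fosb lay between 0.269 and 0.216, and Ier2 varied least, at 0.161, where 23.6% of features varied less. From the lowest to the highest of the 24 mice, Egr2 spanned an 8.96-fold range, Atf3 7.21-fold and Fos 6.45-fold, while Ier2 spanned 1.54-fold.

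The levels of Fos, Egr2 and Atf3 moved together across mice, and every pair that held another gene had a lower r. Egr2 and Atf3 had a Pearson's r of 0.948 and a Spearman's rho of 0.935, Fos and Atf3 0.943 and 0.949, and Fos and Egr2 0.903 and 0.881, over 24 mice. For each of these r and rho the permutation p was 1e-05, the smallest that 100000 resamples can give, and 0.00015 after adjustment over the 45 pairs. The relations held within each diet: r was 0.936 in No NR and 0.961 in Ctrl NR mice for Egr2 and Atf3, 0.962 and 0.922 for Fos and Atf3, and 0.872 and 0.927 for Fos and Egr2. With slide means removed r was 0.951, 0.948 and 0.903, and without the 2 mice farthest from the median it was 0.928, 0.928 and 0.873. Within the 4 slides that hold at least 5 mice the lowest r was 0.882, 0.885 and 0.687.

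The No NR mice fell into 4 low and 8 higher animals for these genes. Among the 8, r was 0.932 for Fos and Atf3, 0.468 for Egr2 and Atf3 and 0.306 for Fos and Egr2. These mice were set apart by the values of the same genes, which narrows their range, so the values are a description and were not tested against those over all mice. Over all 24 mice the widest gap was 0.58 for Fos and 0.43 for Egr2. For Atf3 it was 0.63, between 11 mice at or below -0.59 and 13 mice at or above 0.04, so its pooled r spans a gap without mice of either diet. The Ctrl NR mice filled only a part of the wider gap of the No NR mice, from -1.14 to 0.04.

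Of the 45 pairs, 33 had r above 0 and 12 below, with a median r of 0.275. At an adjusted p under 0.05, 9 pairs passed on r, all of them positive, and 7 passed on both r and rho. Beside the 3 pairs above these 7 were Fos with Egr1 (r = 0.649, permutation adjusted p = 0.0081), Egr1 with Nr4a1 (0.618, 0.00981), Fos with Junb (0.604, 0.0127) and Egr1 with Egr2 (0.600, 0.0127). Junb passed on r alone with Egr2 and with Atf3 (0.541 each). Its probe was well above background on 2 of 12 No NR and 6 of 12 Ctrl NR arrays, and passed the filter only through the Ctrl NR mice. Most of the values behind the r of Junb thus lie near background. Jun had an r of -0.11 with Fos, 0.02 with Egr2 and 0.02 with Atf3, so the transcripts of the AP-1 partners Fos and Jun were not seen to follow each other. The lowest r was that of Atf3 with Ier3, -0.452, which did not pass (permutation adjusted p = 0.0815). All values of a mouse come from 1 array, so the error of labelling and of hybridisation is shared by the genes of a pair.

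**Figure D4:**
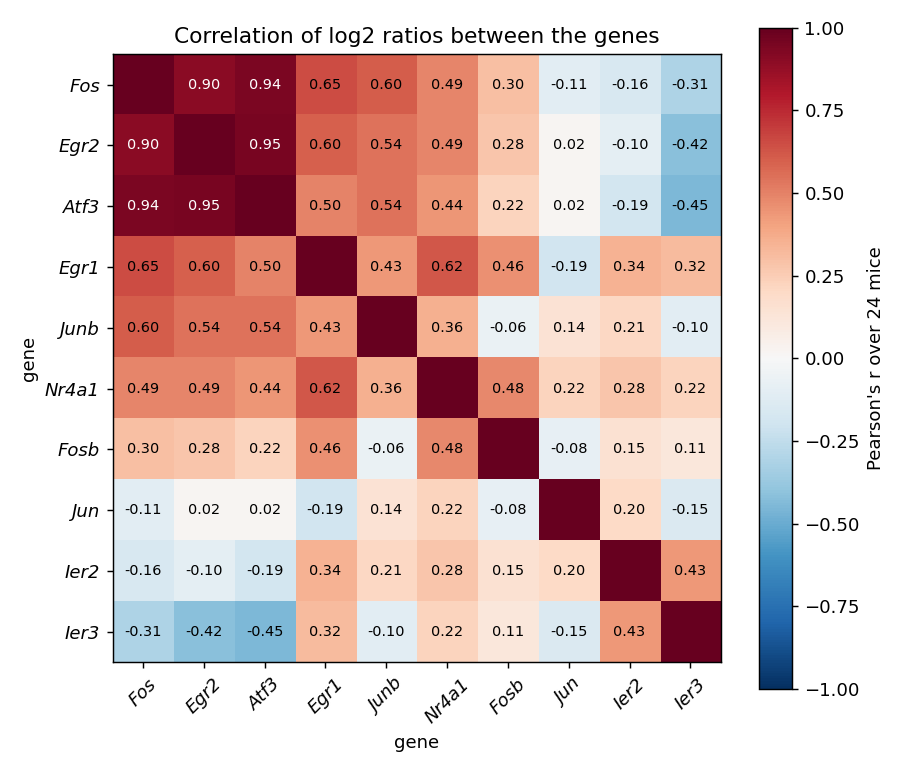
Pearson's r of log2 ratios over 24 mice for each pair of immediate early genes (both axes), red for positive and blue for negative values. Fos, Egr2 and Atf3 form a block with r of at least 0.90 in the upper left, Egr1, Junb and Nr4a1 show moderate positive values with it, and Ier3 shows negative values with it.

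Fos, Egr2 and Atf3 also had by far the most features with a like pattern. Over the deviations of the 24 mice from their diet means, 1057 of 20709 other features had r above 0.8 with Atf3, 925 with Fos and 889 with Egr2. The same count was 13 for Egr1, 4 for Jun, 2 for Nr4a1, 1 for Ier3 and 0 for Fosb, Junb and Ier2. Among 12369 named genes that are not members, the closest to Atf3 were Rgs1 (r = 0.990), a regulator of G protein signalling in leukocytes, Nckap1l (0.989), a haematopoietic part of the actin-regulating WAVE complex, and Itgb2 (0.989), the leukocyte integrin CD18. The closest to Fos were Rgs1 again (0.956), the mitochondrial aspartate-glutamate carrier Slc25a13 (0.955) and the myeloid receptor Cd300lb (0.954).

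Egr1 and Nr4a1 had other neighbours. Among the closest to Egr1 were the spliceosome gene Snrpf (r = 0.831) and Gch1 (0.825), the first enzyme of tetrahydrobiopterin synthesis. Among the closest to Nr4a1 were the chemokine gene Cx3cl1 (0.867) and Flywch2 (0.794). These genes were picked for their r, so the values describe likeness and carry no test.

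Since Fos, Egr2 and Atf3 shared their pattern with leukocyte genes, each immediate early gene was set against the mean log2 ratio of marker lists for the cell types that the fat pad could hold, none of which contains an immediate early gene. The mean of the 21 macrophage markers was -1.05, 0.10 and 0.55 in the lowest, median and highest No NR mouse, against -1.62, -0.29 and 0.62 in Ctrl NR mice. Of these 21 markers 20 were nominally higher and 1 lower in No NR mice, 3 lay at an unadjusted p under 0.05 and 0 passed after adjustment by limma (14.1% and 0% of all features), with a median log2 fold change of 0.22. In RNA of a whole fat pad, more cells of a type and more RNA per cell cannot be told apart.

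Atf3 followed the macrophage mean with r = 0.982 and rho = 0.973, Egr2 with 0.943 and 0.902, and Fos with 0.919 and 0.933, over 24 mice (permutation adjusted p = 9.1e-05 for each r, over 100 relations). For Atf3 r was 0.974 within No NR mice and 0.989 within Ctrl NR mice, 0.987 with slide means removed and 0.977 without the 2 farthest mice, and within single slides it was at least 0.927. For Egr2 and Fos the lowest of these values were 0.904 and 0.802, each within a single slide. A straight line on the macrophage mean took up 96.5% of the variance of Atf3 between mice, 89.0% of that of Egr2 and 84.5% of that of Fos, with slopes of 1.38, 1.29 and 1.04. The markers did not all move as their mean did. In deviations from diet means, 18 of the 21 had r above 0.5 with Fos, and the others lay between -0.498 and 0.0563.

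The same 3 genes ran opposite to the adipocyte marker mean, with r of -0.940 for Atf3, -0.913 for Egr2 and -0.904 for Fos. That mean itself ran opposite to the macrophage mean (r = -0.948), so the lists are not independent of each other. With the mean of stromal progenitor markers r was 0.889, 0.854 and 0.814 for Atf3, Egr2 and Fos, and with that of neutrophil markers, 4 of 10 of which were measured, 0.641, 0.506 and 0.585. It was -0.815, -0.774 and -0.838 with the endothelial mean and -0.769, -0.807 and -0.717 with the red blood cell mean. All of these passed on r after adjustment over the 100 relations by permutation. The 4 neutrophil markers differed among themselves. In deviations from diet means, 2 of them had r above 0.5 with Fos and the others 0.003 and -0.380, so their mean does not stand for each marker. The stromal progenitor markers differed as well. Of these 10 markers 5 had r above 0.5 with Fos in such deviations, and the others lay between -0.005 and 0.345. The mean of the 3 spermatid genes varied widely between mice, from -2.57 to 1.14 in No NR and from -2.15 to 3.05 in Ctrl NR mice, and had r between -0.06 and 0.02 with these 3 genes.

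The other genes were less close to the macrophage mean. Junb had r = 0.556, Egr1 0.507 and Nr4a1 0.497 (permutation adjusted p = 0.0224, 0.0411 and 0.0446). On rho Egr1 alone of these 3 passed (permutation adjusted p = 0.0258), and within single slides the lowest r was -0.05 for Junb, 0.27 for Egr1 and -0.18 for Nr4a1. The remaining values were smaller: Fosb had r = 0.212, Jun 0.0999, Ier2 -0.152 and Ier3 -0.415, and none of these 4 passed. Egr1 was closer to the adipocyte mean, at -0.642 (permutation adjusted p = 0.00517). Ier3 was the only 1 of the 10 genes that passed with the mean of the mesothelial markers, the cells that line the fat pad, at r = 0.735 and rho = 0.743 (permutation adjusted p = 0.0005 and 0.0004). That relation was weaker within No NR mice (r = 0.546) than within Ctrl NR mice (0.776), a difference that was not tested, and within single slides r lay between 0.0853 and 0.897. All 9 measured mesothelial markers were nominally lower in No NR mice, as Ier3 was and as 52.4% of all features were. Of the 9 markers 0 passed at an unadjusted p under 0.05, against 14.1% of all features. The markers were read in the same mice, so they are not 9 separate observations.

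**Figure D5:**
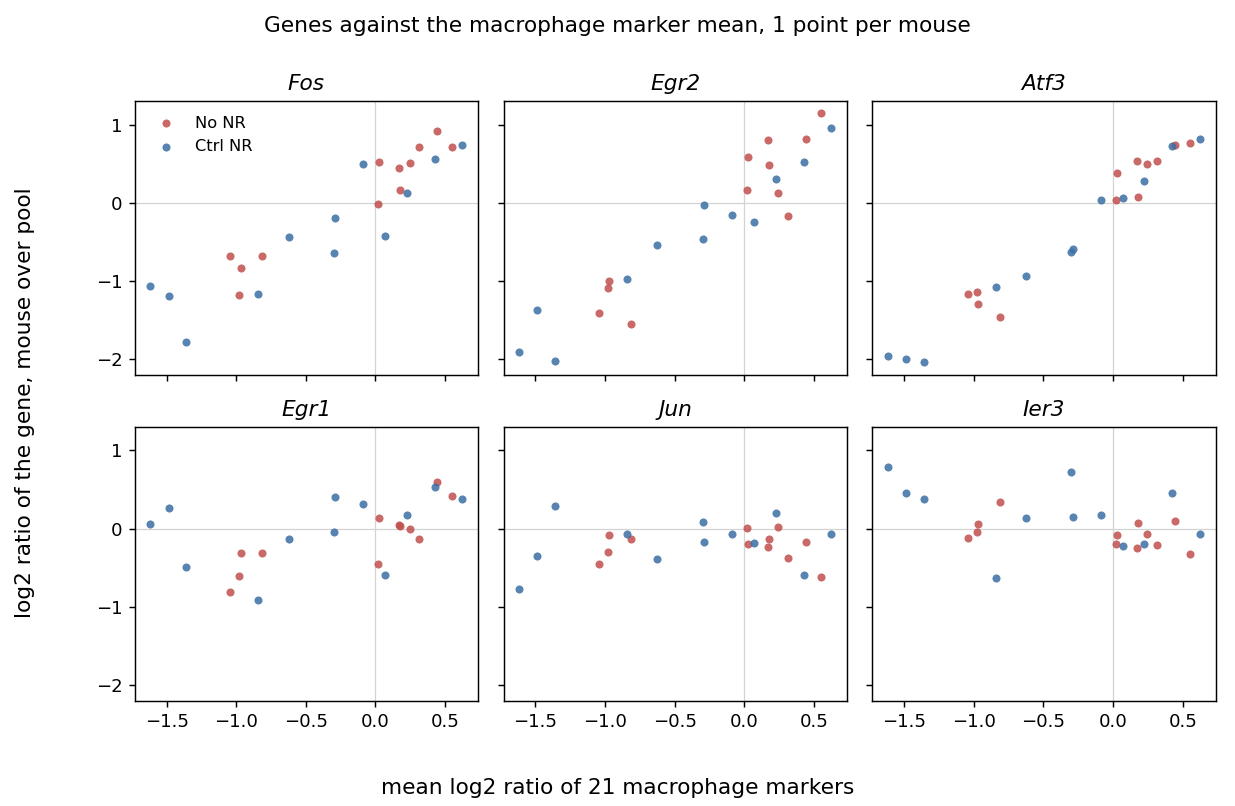
Log2 ratio of 6 immediate early genes (vertical axes, shared scale) against the mean log2 ratio of 21 macrophage markers in the same mouse (horizontal axis), No NR mice in red and Ctrl NR mice in blue. Fos, Egr2 and Atf3 lie along a line that the mice of both diets share, with r from 0.919 to 0.982, whereas Jun shows no slope (r = 0.0999) and Ier3 a weak downward one (r = -0.415).

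With the macrophage mean as a covariate beside diet, an alternative chosen after seeing the data, the log2 fold changes of the 3 genes were smaller: 0.18 for Fos, 0.04 for Egr2 and 0.10 for Atf3 (limma adjusted p = 0.498, 0.915 and 0.564). Those of Ier2 and Ier3 stayed at -0.16 and -0.19, and that of Nr4a1 was -0.22, at an unadjusted p of 0.0178 and a limma adjusted p of 0.242. With the macrophage mean removed from every gene by a straight line, r was 0.541 for Fos and Atf3, 0.341 for Egr2 and Atf3 and 0.273 for Fos and Egr2. The highest r among the 45 pairs was then that of Egr1 with Ier3, 0.672, against 0.317 before, and the lowest were those of Fos with Jun, -0.503, against -0.11 before, and of Jun with Atf3, -0.437, against 0.02 before. The median over the pairs was 0.192, and none of these values was tested. The part that the number of macrophages plays in these levels was not tested.

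Further genes of the same response gave no call either. Of 37 other immediate early genes 31 were measured, of which 10 were nominally higher and 21 lower in No NR mice, with 1 higher and 4 lower at an unadjusted p under 0.05 and 0 after adjustment by limma. These 5 genes are 16.1% of the list, near the 14.1% of all features under that limit, and 52.4% of all features were nominally lower. The lowest p belonged to the polo-like kinase gene Plk3 at a log2 fold change of -0.30 (SE 0.104, limma adjusted p = 0.196), the inhibitor of differentiation Id1 at -0.29 (SE 0.118) and the clock-linked repressor Bhlhe40 at -0.22 (SE 0.0895). In their diet-centred pattern the closest to Fos were the kinase gene Plk2 (r = 0.853), Npas4 (0.816), known from activity-driven transcription in neurons, and Id2 (0.766).

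Of 17 other AP-1 and related bZIP factors 16 were measured, 5 nominally higher and 11 lower, with 0 higher and 2 lower at an unadjusted p under 0.05 (12.5%, against 14.1% of all features). These 2 were Cebpb, a factor of early adipogenesis, at -0.35 (SE 0.118, limma adjusted p = 0.188), and the AP-1 repressor Jdp2 at -0.18 (SE 0.0715, limma adjusted p = 0.266). Among those closest to Fos were Batf3 (r = 0.821) and Batf (0.723), both known from lymphoid and dendritic cells.

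Feedback regulators shut the response off. Of 18 listed 16 were measured, 6 nominally higher and 10 lower, with 2 lower at an unadjusted p under 0.05 (12.5%, against 14.1% of all features): the cytokine signalling inhibitor Socs1 at -0.20 (SE 0.0874) and the MAP kinase phosphatase Dusp10 at -0.27 (SE 0.124). Nab2, a corepressor of EGR proteins, was closest to Fos (r = 0.862), followed by the NF-kappaB inhibitor Tnfaip3 (0.669) and the mRNA decay factor Zfp36l2 (0.666).

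Upstream of the response, 20 of 22 listed factors and kinases were measured, 9 nominally higher and 11 lower, and 3 of the 20 (15.0%) lay at an unadjusted p under 0.05, against 14.1% of all features. Elk1, a partner of SRF, was the 1 higher gene among them, at 0.32 (SE 0.140, limma adjusted p = 0.294), and its pattern ran opposite to that of Fos (r = -0.647). The JNK kinase gene Map2k7, at -0.17 (SE 0.0611), and the CREB coactivator Crtc1, at -0.18 (SE 0.0884), were the 2 lower ones. Closest to Fos was Rps6ka1 (r = 0.869), a kinase that phosphorylates CREB and SRF, and then Mapkapk2 (0.675).

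Heat shock genes, which respond to handling and to temperature, were measured for 10 of 11 listed, 2 nominally higher and 8 lower. Hsp90aa1, at -0.23 (SE 0.112, limma adjusted p = 0.349), was the 1 gene at an unadjusted p under 0.05 (1 of 10, against 14.1% of all features). Those with the largest r in size ran opposite to Fos: Hspd1 (r = -0.857), a mitochondrial chaperonin, and the small heat shock gene Hspb1 (-0.678). Over these 5 lists the median log2 fold change lay between -0.08 and -0.02.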

How the data were processed

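Each array compared 1 mouse (Cy5) with the reference pool (Cy3), always in the same dye orientation. Per the file headers, the deposited scanner output gives the linear intensity of every spot. Outlier, saturation and background flags are other values of those files, 0 or 1 per spot, per the file headers. The submitters' processing notes name Agilent Feature Extraction, version 10.7.3.1. The authors' deposited value table holds log2 values for 26384 features, with a median of 8.04 in each column. Its columns followed the log2 Cy5 intensity of their own array (r at least 0.990), best among all arrays for 24 of 24 once genes were centred (r at least 0.597), whereas with the log ratio r was at most 0.180. Higher therefore means brighter, while how it was normalized and filtered is not given in the sources used here.

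Background was corrected with normexp (offset 50) on median spot signals, followed by loess within each array (control spots had no weight), using limma 3.58.1 and R 4.3.3. Outlier spots were left out and spots of a probe averaged. A probe was kept when well above background in Cy5 on at least 6 of 12 arrays of either diet. No spot of the 10 genes was saturated. Names came from a RefSeq table (GRCm38.p6), which named 27235 of 55681 probes. A gene was represented by its brightest kept probe.

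The diet comparison used limma's lmFit and eBayes without covariates, with Benjamini-Hochberg adjustment over all features, and slides with an F-test in a model with diet. Correlations across mice were tested by permutation (100000 resamples, two-sided, numpy 2.4.6), adjusted over 45 pairs or 100 relations. The method was tested on simulated data. The genes, the lists and the tests were chosen with earlier results of these data known. Of each further list, the text names at most the 3 genes with the lowest p and the 3 with the highest size of r with Fos, and for Fos, Egr1, Atf3 and Nr4a1 the 3 closest named genes. Results that this rule would name but that are withheld are not reported here. The labels number the mice individually, and no 2 arrays share an animal.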

Additional observations from a re-analysis of the deposited data

How the results depend on the processing

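Under 40 other settings (other background corrections, normalizations, filters, slide as a block, array weights, each of 24 mice left out, No NR 74 and No NR 118 left out together, the macrophage mean as a covariate), limma called 0 of the 10 genes between diets. The last 2 settings were chosen after seeing the data. A gene that a setting did not measure could not be called in it. Fos, Fosb, Egr2 and Ier2 were measured in 39 of the 40 settings and Junb in 38. Some settings cannot change the log2 fold change of a gene with 1 probe. With no filter, with the mean of probes and with quantile normalization of brightness after loess it was that of the main fit. Fos, Egr2 and Atf3 kept a positive log2 fold change in every setting that measured them, within 0.18 to 0.63, 0.04 to 0.63 and 0.10 to 0.71, and the lowest r among the 3 genes lay between 0.884 and 0.939 in the 35 settings that gave one. With the macrophage mean removed by a straight line it was 0.273. Jun, Junb, Egr1, Ier2, Ier3 and Nr4a1 kept a negative one. Fosb turned positive with median centring (0.010), and with 1 mouse left out its value lay between -0.086 (without No NR mouse 81) and 0.0037 (without No NR mouse 61).

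The median r over the 45 pairs was 0.571 with median centring of each array in place of loess. In the other settings of the fit it was 0.207 to 0.355 over the pairs measured. Fewer than 45 pairs entered with the authors' value table (0.207, no Junb). The same was true when a signal well above background was required on all arrays (0.222). With Cy5 alone 1 of the 10 genes passed between slides, and with the authors' value table, which had no Junb, 1 of those measured did. The share of all features that passed between slides in these settings is not given here. Median centring left 264 features at an unadjusted p under 0.05 and placed 33.9% of all features higher in No NR mice, against 47.6% with loess, and no filter gave 4557 features. The cause was not tested. Array weights gave 4 of the 10 genes at an unadjusted p under 0.05 (Fos, Atf3, Ier2 and Ier3). After adjustment they called 275 of all features and 0 of the 10 genes. The share of all features at an unadjusted p under 0.05 with array weights is not given here, so the 4 genes cannot be set against it.

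Single mice moved counts. Without Ctrl NR mouse 88, 3 of the 10 genes lay at an unadjusted p under 0.05, and 2 did without Ctrl NR mouse 64, 68 or 77 or without No NR mouse 78 or 98. The count over all features under that limit moved as well, between 2501 and 3710 with 1 mouse left out, against 2972 with all mice. Features called over the whole array numbered 227, 219, 80, 34 and 9 without Ctrl NR mouse 68, 117, 104, 75 and 77, and 3 and 2 without No NR mouse 78 and 118, against 0 with all mice; the macrophage mean as a covariate gave 72. The log2 fold change of Egr2 was 0.26 without Ctrl NR mouse 75 and that of Nr4a1 -0.10 without Ctrl NR mouse 108. That of Egr1 was -0.05, -0.06 and -0.07 without No NR mouse 118, Ctrl NR mouse 117 and No NR mouse 98, and -0.20 and -0.18 without Ctrl NR mouse 77 and No NR mouse 81. Those of Jun and Junb, near 0 with all mice, lay between -0.100 and -0.0040 (without Ctrl NR mouse 115 and 75) and between -0.092 and -0.0037 (without Ctrl NR mouse 95 and 88). The median of the 10 genes lay between -0.09 and -0.03 with 1 mouse left out. No paired analysis was possible because the 2 diets share no animal number.

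With 12 mice per diet the 95% interval of Fos, Egr2 and Atf3 reached from below 0 to a log2 fold change of at least 1.04, so these arrays do not bound their differences more tightly. Junb, Fosb and Ier2 were close to background, which limits what their ratios can show.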
